A study of Mus musculus with 2 samples.

Results

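The strongest short transcribed blocks of mouse stomach RNA were selected from a table of contigs, which are unbroken stretches of the genome, on 1 strand, covered by RNA-seq reads. Members were the contigs with a coverage level of at least 100 and a length under 3000 bases, and 1269 of the 332255 contigs (0.382%) met both limits. Stomachs of C57BL/6J mice, a standard inbred laboratory strain, gave the RNA; the animals were adults of 8 weeks, with no treatment named. Males and females of a litter were pooled. Libraries were made from polyadenylated RNA longer than 200 nucleotides after removal of ribosomal RNA, kept the strand of origin, and were read as pairs of 76 bases. There was 1 group of 2 libraries, given as biological replicates 1 and 2 with 1 donor record for both, so a difference between them measures only the spread between these libraries. Contigs and splice junctions came as tables of the whole series on the mm9 assembly, and expression per gene came for each library on mm10, with 51633637 expected read pairs of mouse genes in replicate 1 and 61635982 in replicate 2.

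Most RNAs of a mammalian cell are cut from longer precursors. Introns are removed at a donor site on their upstream side and an acceptor site on their downstream side, and the exons between are joined, so reads of a spliced RNA pile up in blocks over exons. In the stomach, chief cells secrete pepsinogens and other digestive proteins, pit and neck cells secrete mucins, gastrokines and trefoil peptides, parietal cells secrete acid, and scattered endocrine cells release gastrin, ghrelin and somatostatin. The mouse stomach also has a squamous forestomach and a thick wall of smooth muscle.

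Because level and length chose the members, both are given as a description. The level is in the unit of the table and equals 0.0491 times the mean coverage per base. Its median over the members was 166, with quartiles of 124 and 295 and a highest value of 49300, against a median of 0.467 over all contigs. Levels of 200 or more were held by 504 members, of 1000 or more by 68 and of 10000 or more by 6. Length had a median of 467 bases and ran from 14 to 2956, and 41 members were shorter than 50 bases. The members covered 787127 bases, 0.894% of all covered bases, and held 41.0% of the summed coverage, or 39.7% when the 2 contigs at the ceiling of that column were left out. These 2 are the strongest member and, by its level of 26000 over 6196 bases, a contig of Pgc outside the members. The Pgc sum is cut more, so 41.0% is too high, and 39.7% covers the other contigs only. With the strongest member's sum cut at the ceiling, the 10 strongest held 31.3% of the members' coverage and the 100 strongest 57.7%. The reproducibility value was 0 in all 1269 members and in 24.8% of all contigs, but its definition is not given in the sources used here. Strands were near even, with 639 on plus and 630 on minus, and chromosome 7 held most members, 148, followed by chromosome 11 with 107 and chromosome 2 with 104. All contigs were not counted by chromosome, so these numbers do not show whether any chromosome held more than its share.

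At the level limit, members at exactly 100 included contigs of Pttg1ip, Asb2, Nedd8 and Pga5. Just below it lay contigs of Zfp706 at 99.9, Smim24 at 99.7 and Sec61b at 99.6. The longest members were a contig of Furin of 2956 bases and level 136, one of Atp4a of 2908 bases and level 400, and one each of Actn4 (2876 bases, level 109), Krt19 (2810 bases, level 373) and Gkn2 (2731 bases, level 724). Among the 19 contigs as strong but 3000 bases or longer, the shortest belonged to Ckb (3047 bases, level 302), Mknk2 (3092 bases, level 142), Klf4 (3106 bases, level 200), Leng8 (3121 bases, level 105) and Ndufs7 (3128 bases, level 113). That group also held the main contig of Pgc, which encodes pepsinogen C, at 6196 bases and level 26000, and contigs of Tff2 (3429 bases, level 408), Muc5ac (4983 bases, level 481) and Pla2g1b (3303 bases, level 413). Those contigs are therefore outside what follows.

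Gene names were given through splicing alone, since contigs and gene models lie on different assemblies. A contig took a gene when junctions of at least 10 reads at or in it formed, with at least 2 successive introns, the intron and exon lengths of that gene on the same chromosome and strand. In this way 1006 members (79.3%) were tied to 614 genes, and 263 were not. A donor and an acceptor of the gene, but no whole intron, lay in 409 members (32.2%), whose median length was 237 bases. Donors alone lay in 262 members (20.6%, median 472 bases), and acceptors alone in 128 (10.1%, median 774 bases). At least 1 whole intron of the gene lay inside 207 members (16.3%, median 1084 bases), with 1 intron in 122 of them, more in 85 and at most 6, as in the Furin contig. Levels of these classes were close, with medians of 149, 172, 169 and 177. In the plot of level against length, blocks with a whole intron lie at the long end. The strongest points under 100 bases are contigs tied to no gene.

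**Figure D1:**
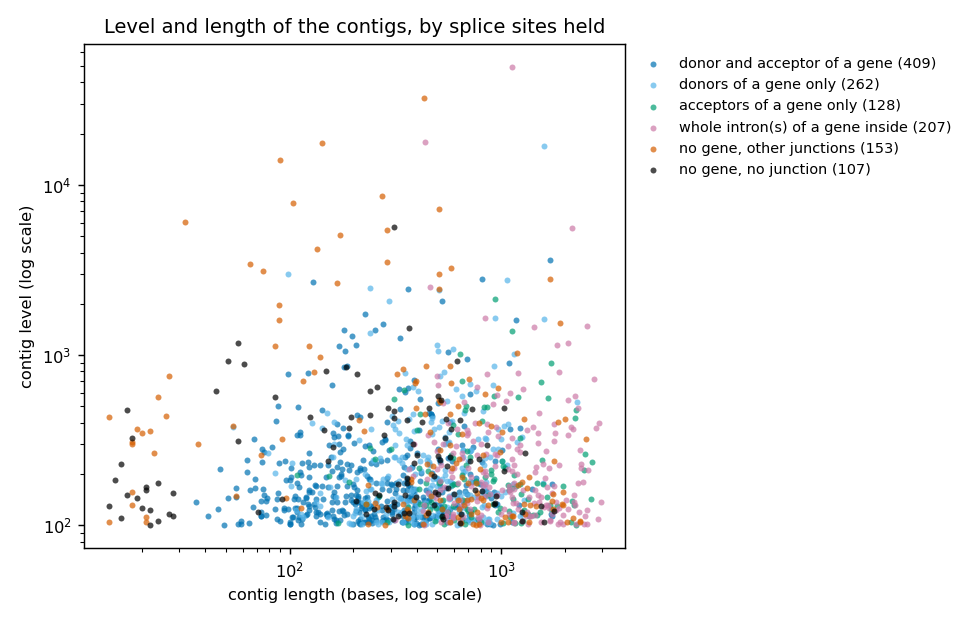
Level (vertical, log scale) against length in bases (horizontal, log scale) of the contigs, coloured by the splice sites they hold; 3 contigs whose junctions fitted 2 genes equally are not drawn. The 409 contigs with a donor and an acceptor have a median length of 237 bases and those holding a whole intron a median of 1084.

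In 395 members a single acceptor was followed by a single donor, so the exon between them could be measured. This exon had a median length of 141 bases and ran from 30 to 1268. The contig reached past it, into the flanking introns, by a median of 24 bases on the acceptor side and 13 bases on the donor side, and by 10 bases or fewer on both sides in 93 contigs. For 306 of these contigs, from 205 genes, a wholly coding exon of at most 300 bases with the same length and flanking intron lengths was found in the GENCODE M21 gene models. The 7 genes with the strongest such contigs are shown by the sequence of the exon, since the exon is the part of the contig that spliced reads join to its neighbours. The contigs are longer than these exons. The sequences were taken from GENCODE M21 transcripts (mm10), 5′ to 3′ on the strand of the gene. The first base and the last 3 bases, which border the acceptor and the donor, are in capitals.
Gkn1: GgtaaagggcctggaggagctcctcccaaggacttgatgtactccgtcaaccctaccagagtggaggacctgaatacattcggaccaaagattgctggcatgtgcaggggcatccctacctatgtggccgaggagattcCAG
Chia1: GtctggctcttctgctgaatgctcagcTGG
Chchd10: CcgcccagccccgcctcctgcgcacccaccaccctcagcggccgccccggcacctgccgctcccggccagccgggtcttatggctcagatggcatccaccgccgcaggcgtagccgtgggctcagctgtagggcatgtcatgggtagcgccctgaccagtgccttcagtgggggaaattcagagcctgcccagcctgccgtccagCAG
Cox5a: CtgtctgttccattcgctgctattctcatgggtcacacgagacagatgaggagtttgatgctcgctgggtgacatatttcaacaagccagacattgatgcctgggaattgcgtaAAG
Atp5b: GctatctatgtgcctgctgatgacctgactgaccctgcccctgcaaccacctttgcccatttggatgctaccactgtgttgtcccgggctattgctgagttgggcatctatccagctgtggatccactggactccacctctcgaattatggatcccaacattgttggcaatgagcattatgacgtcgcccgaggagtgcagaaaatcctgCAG
Lypd8: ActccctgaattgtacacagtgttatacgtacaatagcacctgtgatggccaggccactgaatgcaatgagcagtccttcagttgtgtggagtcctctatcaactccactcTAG
Rplp0: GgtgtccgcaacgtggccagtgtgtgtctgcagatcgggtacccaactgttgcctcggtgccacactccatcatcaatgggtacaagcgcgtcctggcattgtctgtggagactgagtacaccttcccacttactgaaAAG
The Gkn1 sequence is exon 5 of 6 of a secreted gastrokine of pit cells (chr6:87347068-87347209, minus strand) and sat in a contig of level 2780. Exon 2 of 11 of Chia1, the acidic chitinase (chr3:106114645-106114674), is only 30 bases long, in a contig of 129 bases and level 2690. For Chchd10, a mitochondrial protein, exon 2 of 4 (chr10:75936238-75936445) gave level 2430. Exon 2 of 5 of Cox5a, a subunit of cytochrome c oxidase (chr9:57528956-57529072), gave level 1730. The exon of Atp5b, the beta subunit of ATP synthase, is number 8 of 10 (chr10:128088321-128088533), and its contig of level 1530 reached only 2 bases past the donor. For Lypd8, a cell surface protein of epithelia, it is number 4 of 7 (chr11:58382752-58382865) at level 1410. Rplp0, a protein of the ribosomal stalk, gave exon 6 of 7 (chr5:115562426-115562566) at level 1400. Of the 306 exons, 172 (56.2%) ended in the letters AG, the usual exon side of a donor, and the same held for 55.5% of the 99687 such coding exons of genes whose TPM averaged 1 or more. The exon length was a multiple of 3 in 135 of the 306.

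Edges of the members rarely stood exactly on a splice site. A start at an acceptor or an end at a donor (mirrored on the minus strand) of a junction with at least 10 reads was found exactly in 68 members (5.36%), against 9.43% of all contigs. Within 5 bases it was found in 344 members (27.1%), against 19.2% of all contigs. With an exact match to junctions of at least 100 reads the shares were 3.31% and 1.34%, and with at least 2 reads 10.2% and 16.2%, so their order turned both with the tolerance and with the read minimum. Both edges matched exactly in 2 members.

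Of the 10 strongest members, 2 were tied to Clps, 1 to Gkn1 and 7 to no gene. Clps, which encodes colipase, the cofactor of pancreatic lipase, held the contig of highest level, chr17:28695000-28696130 (mm9) at 49300, joined to a second at 17000 by a junction of 2053959 reads. Its TPM, the share of a library's transcripts scaled to a common total and corrected for gene length, was 194378 in replicate 1 and 278891 in replicate 2 (mean 236635 ± 59759, SD, n = 2). Pla2g1b, a secreted phospholipase A2, had contigs of 3620, 1610 and 473, and 20666 TPM in replicate 1 against 33764 in replicate 2. Chia1 had 9 contigs from 175 to 3010, and 1790 against 2712 TPM. Gif, the intrinsic factor that binds vitamin B12, reached 1350, with 583.8 and 758.3 TPM, and Ctse, the aspartic protease cathepsin E, reached 1060, with 693.5 and 751.6 TPM. Pgc itself entered with 1 contig of 913 bases and level 664, although its 101314 and 148481 TPM were second to Clps. In all, 8 of the 15 listed genes of this group held 29 contigs with a median level of 492.

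Products of pit and mucous neck cells held 29 contigs of 9 of 15 measured genes, with a median level of 350. Gkn1 carried 5 of them, at 17900, 2780, 1620, 1390 and 903, and had 12530 TPM in replicate 1 and 17106 in replicate 2. The strongest, chr6:87298956-87299390, held a whole intron and touched a junction of 1307440 reads. Psca, a lipid-anchored surface protein, had contigs of 5600 and 2090 and went the other way between libraries, with 21591 and 17424 TPM. Gkn2 reached 1470 (6173 and 8287 TPM), Muc5ac, the main gel-forming mucin of pit cells, reached 796 (499.5 and 895.0 TPM), and Gkn3 reached 459 (971.4 and 687.4 TPM). Tff1, a trefoil peptide of pit cells with 31488 and 26924 TPM, held no member.

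Of the parietal cell list, 5 of 14 genes held 11 contigs. Car2, a carbonic anhydrase, led with 1260. Atp4b and Atp4a, the subunits of the proton pump, reached 901 and 400, and both had more TPM in replicate 1 (2272 against 1320, and 2697 against 1389). Ezr, an actin linker of parietal cell canaliculi, reached 774 on only 89.43 and 112.5 TPM. Among hormones, Gast (gastrin) reached 373 with 1671 and 967.4 TPM, Ghrl (ghrelin) 312 with 922.3 and 724.9 TPM, and Chga (chromogranin A) 174 with 221.8 and 211.3 TPM.

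In the squamous forestomach list 8 of 39 genes held 18 contigs with a median of 285, led by Perp, a desmosome protein, at 1080, and the keratins Krt4 and Krt10 at 630 and 583. Of the 39 genes, 18 have fewer than 2 introns and cannot be tied, and 18 reached 100 TPM. Sprr2a2, with 65818 and 29922 TPM, is among those that cannot be tied, so whether it has a strong contig was not seen here. Cnfn, a cornified envelope protein, had 4017 and 2260 TPM but a single contig at 575. Smooth muscle gave 32 contigs of 9 of 16 genes with a median of 221, led by Tagln (transgelin) at 2120 and Acta2 (smooth muscle actin) at 1020. Des (desmin) reached 857 and Actg2 (enteric actin) 853. Striated muscle gave 4 contigs of Acta1 and Ckm, up to 340.

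Ribosomal proteins and translation factors gave 46 contigs of 18 of 45 genes, led by Rplp1 at 2410 and Rplp0 at 1400. Nuclear genes of oxidative phosphorylation gave 39 contigs of 23 of 53 genes, led by Cox5a at 1730 and Cox6a1 at 1650. Fth1, the ferritin heavy chain, reached 2760 in a contig whose most-read junction had 12545 reads. Glycolysis and the citric acid cycle gave 25 contigs of 11 of 18 genes, with Pkm (pyruvate kinase) at 1040, Mdh2 (malate dehydrogenase) at 860 and Ldha (lactate dehydrogenase) at 706. Among the other lists, simple epithelium gave 14 contigs of 7 of 13 genes, led by Spint2 (a protease inhibitor of epithelia) at 614, and the actin cytoskeleton gave 10 of 8 of 14 genes, led by Actb (beta actin) at 1480. The iron, metal and redox list gave 15 contigs of 9 of 25 genes, where Ftl1, the ferritin light chain, reached 1180 and Mt1, a metallothionein, 648. Secretory pathway and chaperone genes gave 10 contigs of 8 of 25 genes, led by Hspb1 (a small heat shock protein) at 468. Immune genes gave 12 contigs of 7 of 20 genes, led by H2-D1, a class I histocompatibility chain, at 364. Collagen and matrix genes gave 22 contigs of 9 of 12 genes with a median of only 137, and Igfbp7, an insulin-like growth factor binding protein, led them at 1640. Immediate early genes gave none from 14 genes, but 6 of these have fewer than 2 introns and cannot be tied, only 3 reached 100 TPM, and the strong contig of Klf4 was too long. The noncoding list gave only Meg3, with 3 contigs up to 171, and 8 of its 13 measured genes cannot be tied. In the plot of levels by gene list the digestive and pit cell lists reach highest.

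**Figure D2:**
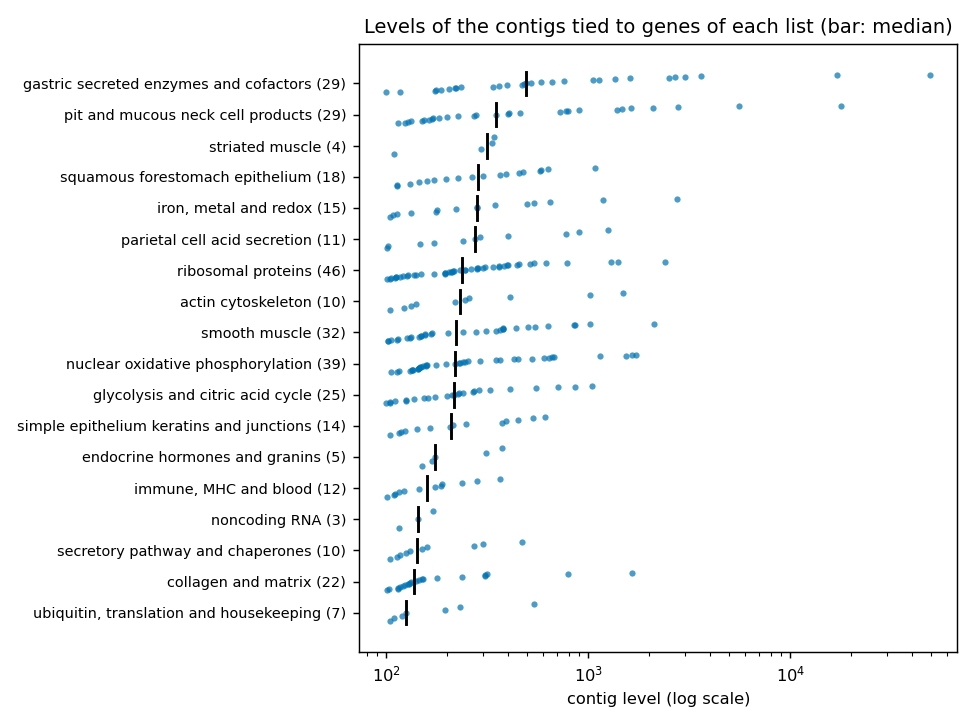
Each point is a contig tied to a gene of the list named at left (number of contigs in brackets); the horizontal axis is level on a log scale and the black bar is the list's median. Medians run from 125 for the ubiquitin and housekeeping list to 492 for the gastric enzyme list.

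One contig per gene was usual: 401 genes had 1 member, 213 had more and 23 had 5 or more. Gsn (gelsolin, which severs actin filaments) had the most, 13, with levels from 111 to 551. Jup (plakoglobin, a junction protein) and Chia1 had 9 each, Ctse had 8, and Muc5ac, Bpifb1 (an antimicrobial-type secreted protein), Flna (filamin A), Actg2 and Serinc2 had 7 each, followed by Psap (prosaposin) with 6. Within a gene the levels were uneven. In Jup they stayed between 101 and 192, in Flna between 102 and 378 and in Serinc2 between 107 and 374, while Chia1 spanned 175 to 3010 and Gkn1 903 to 17900. In Chia1 the first 3 contigs in the direction of transcription had 3010, 2690 and 2520, and the next, of 63 bases, had 205. In all, 302 pairs of members tied to the same gene were joined by a junction, with a median intron of 1190 bases.

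**Figure D3:**
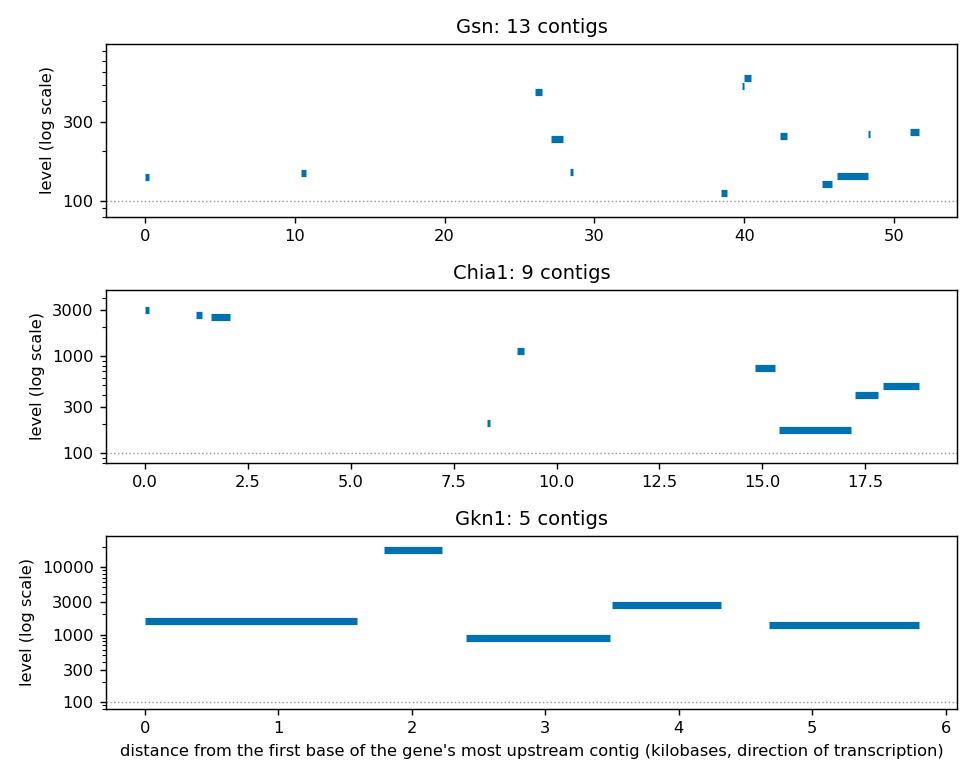
Members of Gsn, Chia1 and Gkn1 as bars at their level (vertical, log scale) along the distance in kilobases from the first base of the most upstream member, in the direction of transcription; the dotted line is the limit of 100. In Chia1 the 3 most upstream bars lie at 2520 to 3010, and in Gkn1 the second bar stands highest at 17900.

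Over the 1006 tied contigs the correlation of log10 level with log10 mean TPM was 0.610 (Pearson) and that of the ranks 0.493 (Spearman). For the strongest contig of each of the 614 genes the values were 0.704 and 0.576. These describe contigs and genes of the same libraries that were chosen for high level, a limit that narrows the range of level and so says nothing of how level follows TPM over all contigs. The ratio of level to mean TPM had a median of 0.853 and ran from 0.00532 for Pgc to 39.4 for Atxn10, whose contig of 379 bases had level 162 while the gene had 3.71 and 4.51 TPM. The next highest ratios were 17.2 for Ostf1, 15.7 for Ppm1g, 12.6 for Mcur1 and 12.4 for Me2, and genes at both ends of the ratio were picked after their values were seen. The most-read junctions at these contigs had 491 reads for Atxn10, 184 for Ppm1g and 559 for Mcur1, against 2422 for Ostf1 and 4279 for Me2. Members were held by 390 of the 757 genes averaging 100 TPM or more (51.5%) and by 47 of the 70 with at least 1000 (67.1%). Genes with fewer than 2 introns cannot be tied by construction, and they made up 100 of the 367 genes at 100 TPM or more with no member. With them left out, 59.4% of genes at 100 TPM and 83.9% at 1000 TPM held a tied member. Not every gene left over could be tied: Cox8a, Ndufab1 and Gpx1, all above 1000 TPM, had no tied junction. Others had tied junctions but only weaker contigs, such as Rps12 (highest level 3.41) and Actg1 (74). These shares therefore count ties, and a gene left over may still have a strong contig.

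**Figure D4:**
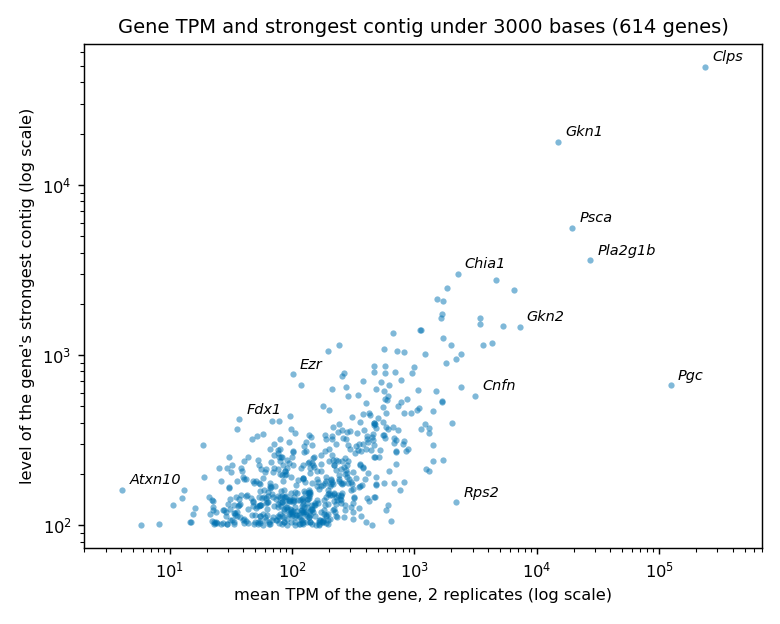
Level of the strongest member of each of 614 genes (vertical, log scale) against the gene's mean TPM over 2 replicates (horizontal, log scale). Clps lies at the top right, Pgc far to the right at level 664, and Atxn10 at the far left at level 162.

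The 263 members tied to no gene, some of which may lie in genes that cannot be tied, included many of the strongest. They were 7 of the top 10, 17 of the top 25 and 41 of the top 100, and their median level was 194, against 162 for tied members. No junction of at least 10 reads touched 107 of them, 153 had junctions that formed no gene, and 3 fitted 2 genes equally. Short contigs were common among them, with 36 of the 41 members under 50 bases. The tie rule favours this, since it needs a splice site in or at the edge of the contig. Spliced reads were scarce for the coverage: the most-read junction had a median of 0.00441 reads per 1000 of summed coverage, against 2.83 in tied members. Part of this gap is set by the grouping, since a tie needs junctions and the 107 untouched members count as 0. The 153 members with junctions that formed no gene had a median of 0.170. The strongest was chr16:11143991-11144421 (plus, 431 bases), with a level of 32300 and at most 2340 reads at a junction. Next came chr9:110183748-110183889 (plus, 142 bases) at 17500 with 111 reads, chrX:84483680-84483769 (plus, 90 bases) at 14000 with 29 reads, and chr19:8326551-8326823 (minus, 273 bases) at 8590 with 131 reads. Then followed chr2:90235275-90235378 at 7790, chr3:5860319-5860829 at 7240 and chr15:82793720-82793751, of only 32 bases, at 6060. No junction touched chr16:17222297-17222608, at 5670. The set closed with chr6:3150730-3151018 at 5400 and chr17:23013384-23013556 at 5090. The mitochondrial chromosome, whose genes have no introns, held 2 members, at 2810 and 481. No sequence is printed for these contigs, as no mm9 genome was used here.

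A junction of at least 1000 reads touched 66 of the untied members, and 19 pairs of untied members were joined to each other, with a median intron of 4928 bases. The best-read pair, chr19:7289377-7290342 and chr19:7291537-7292112 (minus), had levels of 644 and 858 and shared 69942 reads across 1914 bases. On chromosome 4, contigs of 139 and 116 bases with levels of 973 and 703 shared 65107 reads across 261632 bases. Both partners were shorter than 50 bases in 4 of the 13 pairs with at least 1000 reads. In one, chr6:30479948-30479971 and chr6:30688254-30688280, contigs of 24 and 27 bases with levels of 570 and 756 shared 20032 reads across 208284 bases. In another, chr7:130363535-130363560 and chr7:130503844-130503857, the contigs had 26 and 14 bases and shared 10544 reads across 140286 bases. These pairs were chosen after their values were seen. How the tables count reads that fit several places of the genome is not given in the sources, so such shared reads may not belong to these places alone.

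An overlapping contig on the opposite strand was present for 90 members (7.09%), a share near the 7.98% of all contigs, and its level had a median of 0.320% of the member's. The members were the stronger strand in all 90 cases, which the level limit favours, and no opposite contig reached 100. It passed 10% of the member in 8. The highest shares were 40.3% at an internal exon of Sparc, a matrix protein, of level 124, and 31.3% at an untied contig of level 120. Another internal exon of Sparc, of level 145, and an untied contig of level 117 had 28.3% each. Neither untied contig had junctions. Next were 15.8% at Lgals2 (galectin 2, level 348) and 15.4% at Cyb5r3 (cytochrome b5 reductase, level 188). Tagln, at level 2120, had an opposite contig of 0.618%.

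Since contigs pool the libraries, replicates could be compared only through the tied genes. Of all 11582 genes averaging 1 TPM or more, 8.62% differed 2-fold or more between replicates in TMM-scaled counts, 2.66% higher in replicate 2 and 5.96% higher in replicate 1. Of the 614 tied genes 80 (13.0%) did, 3 higher in replicate 2 and 77 higher in replicate 1. Genes with no member but a mean TPM at or above the lower quartile of tied genes (76.4) gave 77 of 548 (14.1%). The share among tied genes was thus near that of other strongly expressed genes. The 2 sets were not matched in expression, as the tied genes below that quartile have no counterpart. The median log2 ratio of replicate 2 to replicate 1 was −0.36 for tied genes, −0.29 for those other genes and −0.05 for all. The median TPM of tied genes was 160.5 in replicate 1 and 129.4 in replicate 2. TPM is a share of a fixed total, and Clps and Pgc took more of it in replicate 2. They had 278891 and 148481 TPM there, against 194378 and 101314 in replicate 1. What part this had in the lower median was not tested. In whole tissue, fewer cells of a type and less RNA per cell cannot be told apart.

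The lowest ratio was that of Igfbp2, another binding protein of insulin-like growth factors, with 797.3 TPM in replicate 1 and 141.6 TPM in replicate 2 (a log2 ratio of −2.52, exact 95% counting interval −2.55 to −2.49). Rab2a, a GTPase of Golgi transport, followed at −2.10 (108.6 and 25.90 TPM), and Ifngr2, an interferon gamma receptor chain, at −1.81 (57.92 and 16.85 TPM). Spink4, a protease inhibitor of mucous cells, had −1.74 (1099 and 325.0 TPM), Gde1, a phosphodiesterase, −1.70 (288.0 and 90.19 TPM) and Duoxa2, which matures a dual oxidase, −1.62 (233.3 and 77.39 TPM). At the other end stood Cfd, the complement factor secreted by adipocytes, at 1.33 (49.86 and 126.2 TPM). Lars2, a mitochondrial leucyl-tRNA synthetase, had 1.21 (51.99 and 123.3 TPM), Me2, a malic enzyme, 1.04 (8.39 and 17.66 TPM), and Gsta1, a glutathione transferase, 1.00 (149.1 and 291.4 TPM). Nqo1, a quinone reductase, and Muc5ac had 0.89 and 0.82. With 2 libraries of a single group there was no test, and the intervals cover counting error only.

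Of the 614 tied genes, 129 (21.01%) were higher in replicate 2, against 45.6% of all genes averaging 1 TPM or more. This share was not counted for the strongly expressed genes with no member, whose median log2 ratio of −0.29 was also negative. The gastric enzyme genes were mostly higher in replicate 2: 7 of their 8 tied genes were, with a median log2 ratio of 0.53 and a range from −0.36 for Ctsd to 0.75 for Pla2g1b. Pit and neck genes were split, 5 of 9 being higher in replicate 2, with a median of 0.03, or 4 of 9 with a median of −0.02 when log2(TPM + 1) was compared. Genes of acid secretion (1 of 5), of the squamous epithelium (1 of 8), of smooth muscle (2 of 9, or 1 of 9 by TPM + 1) and of oxidative phosphorylation (2 of 23) were mostly higher in replicate 1, as most tied genes were, with medians of −0.38, −0.36, −0.50 and −0.49. None of the 3 hormone genes was higher in replicate 2, and none of the 8 actin cytoskeleton genes was (1 of 8 by TPM + 1). In oxidative phosphorylation the lowest was Cox5a at −1.61 (2514 and 825.3 TPM), and in smooth muscle Des at −1.28 (806.4 and 340.5 TPM). These medians lie beside −0.36 for all tied genes, so those of the squamous and parietal lists are close to the whole. The part that the makeup of the tissue pieces had in these differences was not tested.

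**Figure D5:**
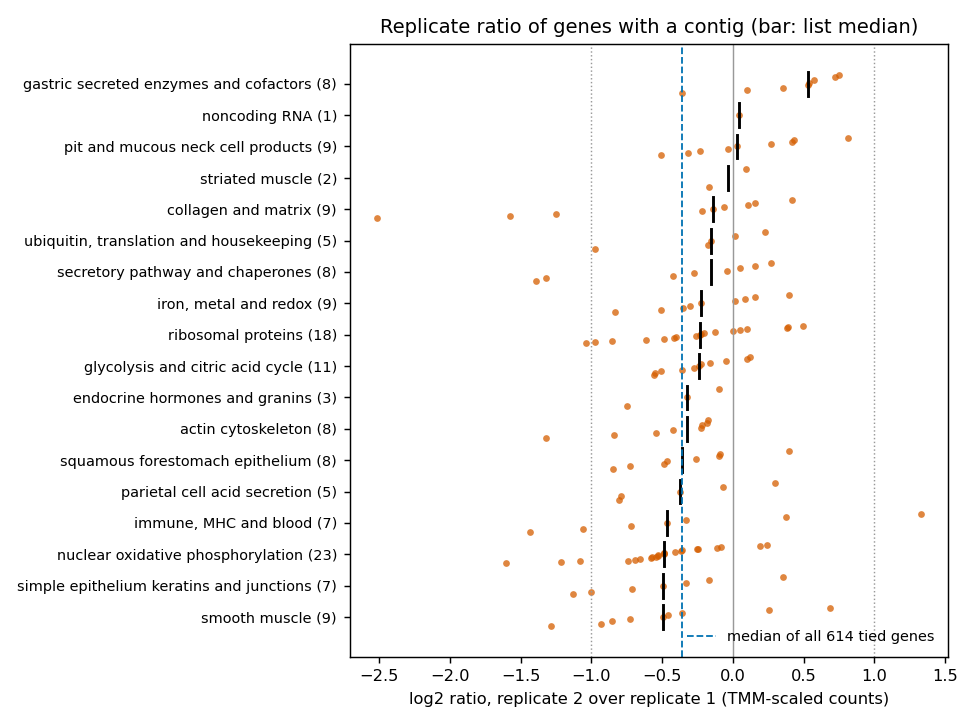
Log2 ratio of replicate 2 to replicate 1 in TMM-scaled counts (horizontal) for each tied gene of the lists at left (number of genes in brackets); black bars are list medians, the dashed line is the median of the 614 tied genes at −0.36, and dotted lines mark 2-fold. The gastric enzyme list lies to the right at a median of 0.53, and smooth muscle lies to the left at −0.50.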

How the data were processed

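RNA-seq of stomach RNA from 2 libraries of 1 group was used. The authors deposited, for the whole series and on mm9, a contig table and a junction table both without a named aligner or caller. The contig columns, as deposited by the authors, are a coverage signal: summed coverage with a ceiling of 1073741823, and a level that, from the values, is proportional to coverage per base. The deposited junction column is a count of reads. Both deposited tables also carry a display score, which was not used. Per the file headers and notes, the gene tables hold expected counts and TPM for GENCODE M4 genes on mm10. No per-sample column lacked a sample, as the mm9 tables have none.

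Members were the contigs of level 100 or more and under 3000 bases. The members and the gene lists were chosen with earlier results of these data known. Junction starts and ends were read as intron edges, and ties used intron and exon lengths of GENCODE M21 for genes in the deposited tables, so no coordinate was converted. The procedure was run on 23165 junctions made from the same gene models, moved by a constant offset per chromosome. Of these 100% were tied to their own gene, alone or with others, which the use of lengths alone ensures. After changed spacing 0.0173% were tied to any gene. This checks the procedure only, and not wrong ties among similar genes or differences between the assemblies. Of 95512 junctions with at least 10 reads, 76.5% were tied. These expected counts of 43346 mouse genes were rounded and scaled by TMM in edgeR 4.0.16 (prior count 2), and DESeq2 1.42.0 size factors were an alternative. Of these genes 42462 had a symbol in the reference table. Intervals are exact (Clopper-Pearson, 95%) and cover counting error only.

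Named were tied genes of the 25 strongest members, up to 5 members per list, the 10 genes with most members, the 6 highest and 6 lowest replicate ratios among genes averaging 5 TPM or more, the 5 longest members, contigs beside the limits, and the 10 strongest without a gene and with the highest opposite-strand level. Sets outside this rule are said to be chosen after seeing values. Alternatives changed the limits, edge tolerance, junction reads, tie evidence, overlap, scaling, pseudocount and TPM minimum, and left out each replicate.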

Additional observations from a re-analysis of the deposited data

How the results depend on the processing

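The number of members is set by the level limit: 3147 contigs passed at a level of 50 and 504 at 200, while length limits of 1500 and 6000 bases gave 1158 and 1286. Edges at a splice site numbered 68 at an exact match, 238 within 2 bases and 344 within 5, and 129 or 42 when junctions needed 2 or 100 reads. Requiring a covered share of 0.5 of the member on the opposite strand left 14 of 90. Ties were less affected: 882 members were tied with 3 junctions, 880 of them to the same gene, and 894 with junctions of 100 reads, all to the same gene. Tied genes apart 2-fold numbered 81 with DESeq2 size factors, 74 with totals only, 76 with TPM + 1, 80 with TPM + 0.1 and 80 with no TPM minimum, beside 8.69%, 8.43%, 6.42%, 10.02% and 10.3% of all genes. Of 48 alternative values of the 12 named replicate ratios, 0 changed direction, and Me2 alone lost its 2-fold difference, at 0.99 with TPM + 1. The median TPM of tied genes was 129.4 without replicate 1 and 160.5 without replicate 2. No paired analysis was possible because there was only 1 group. The number of libraries limits every comparison of replicates.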

Other observations

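Tff1, a trefoil peptide secreted by pit cells, had 31488 TPM in replicate 1 and 26924 in replicate 2, and its best-read junction had 149348 reads. The contigs at that junction, of 190 and 192 bases on chromosome 17 (minus strand), had levels of 3.84 and 4.70 and summed coverages of 14841 and 18383, so that the junction had 10.1 and 8.12 times as many reads as these contigs had summed coverage. On chromosome 5 (minus strand), contigs of 189 and 156 bases tied to no gene had levels of 2.54 and 6.25 and a junction of 149329 reads. The other Tff1 junction had 69421 reads, and a further contig on chromosome 5 (120 bases, level 3.91) touched a junction of 69419 reads.

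Over the whole table, 32 of the 97216 contigs with a junction of at least 10 reads had more reads at a junction than summed coverage. Of these, 7 had a junction of at least 10000 reads. The count was 0 among the 1269 members, which the level limit favours, as level is proportional to coverage per base. The highest level among the 32 was 6.25. Contigs of Gsta1, a glutathione transferase that also held a member of level 226 elsewhere, were also among the 32. They had a junction of 4613 reads beside a level of 0.139. The cause was not tested, and these contigs were picked after their values were seen.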
